A study of Rattus norvegicus with 8 samples.

Results

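The genes described are lysosomal hydrolases and lysosomal membrane proteins, with a few of their cofactors, subunits of the proton pump and the transcription factor Tfeb. They were chosen by name, from a list of 42 symbols, and a row carrying the name was found for 40 of them among the 32975 rows of the count table. Names came from the authors' own gene list, which holds 13612 rows, each with at least 80 counts in total. Genes below that count, markers of cell types included, had no named row. All 40 passed the filter on low counts, which the naming made likely beforehand, and stood among the 13250 genes tested. Ctss and Sgsh had no row of that name, which can mean a low count or another name, and were not analysed here. Each of the 40 genes had at least 160 counts in every library, the lowest being Ctsk in S5, so none was near the floor of the measurement.

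RNA-seq was carried out on primary nucleus pulposus (NP) cells, which fill the soft centre of the intervertebral disc, isolated from adult Sprague Dawley rats and grown in DMEM with serum. All cells were transduced with a lentivirus. Sirt6-Ctrl cells (n = 4, libraries S1 to S4) received a control ShRNA, and Sirt6-KD cells (n = 4, libraries S5 to S8) received a mixture of ShSirt6 clones, which target Sirt6, a nuclear NAD-dependent deacylase. The comparison asks how the RNA of these cells differed after Sirt6 was depleted, and the cells of each culture are a mixed transduced population rather than a single clone. According to the series record the cells came from 4 rats, with a control for each knockdown, so the groups may share animals. The labels do not tie a library to a particular rat, so the libraries were compared unpaired and the p-values measure the spread between these libraries, whatever its source.

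The lysosome is an acidic, membrane-bound compartment in which proteins, glycans, glycosaminoglycans, lipids and nucleic acids are broken down. Its lumen is acidified by the vacuolar H+-ATPase (V-ATPase), its enzymes are mostly delivered by mannose 6-phosphate receptors, and its limiting membrane is lined by heavily glycosylated proteins such as LAMP1 and LAMP2. Many of its genes share an E-box motif, called the CLEAR element, that is bound by TFEB and its relatives. NP cells live in a matrix rich in proteoglycan, and lysosomal enzymes of glycosaminoglycan turnover act on the chains of that matrix once they are taken up.

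Sirt6 itself was lower in every Sirt6-KD library, at 56.4, 54.3, 52.4 and 47.5 CPM (counts scaled to a common library total after TMM normalization) in S1 to S4 and 21.8, 20.96, 19.2 and 20.6 CPM in S5 to S8 (log2 fold change -1.35, SE 0.135, adjusted p = 0.000713, edgeR's quasi-likelihood test). Total counts ran from 31994838 to 40124813 per library. The Sirt6-Ctrl libraries differed among themselves more than the Sirt6-KD libraries did. Synthetic ERCC spike-ins took 6.27% and 9.80% of the counts in S1 and S2, 3.08% and 2.97% in S3 and S4, and 2.15% to 2.47% in the Sirt6-KD libraries (p = 0.0286 by an exact permutation test, two-sided, which is the smallest value possible with 4 libraries a group). For this reason results are given with and without S1 and S2. Of 15 NP markers, 7 had a named row, among them Acan (158 to 2296 counts) and Krt8, which was low and was called lower in Sirt6-KD (from 6.56 ± 3.07 to 2.63 ± 0.473 CPM, mean ± SD over 4 libraries). Krt8 was the only call of the 7 (14.3%, against 10.7% of all genes called lower). Negative log2 fold changes were seen for 4 of them and positive ones for 3, namely Cdh2 (0.53), Sox9 (0.48) and Basp1 (0.092). Of 15 macrophage and osteoclast markers, cells also rich in lysosomes, 2 had a named row, with a summed level of 10.9 to 27.6 CPM in Sirt6-Ctrl and 10.2 to 19.6 CPM in Sirt6-KD. The defining marker Csf1r had 0 to 33 counts, and the part of such cells in the results was not tested.

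Across the 40 lysosomal genes, 14 were called lower in Sirt6-KD (35%), against 10.7% of all genes tested, where a call needed an adjusted p under 0.05 together with a change of over 1.5-fold. None was called higher, against 8.02% of all genes tested. With the same thresholds, DESeq2 and limma-voom each called 13 lower and 1 higher, the latter being Ids. At an unadjusted p under 0.05, edgeR gave 18 lower, against 20.4% of all genes, and 2 higher, against 16.1%, and DESeq2 and limma-voom gave 18 lower with 3 and 2 higher. By adjusted p alone, 16 were lower, against 12.8% of all genes, and 0 higher, against 9.11%. Negative log2 fold changes were seen for 28 of the 40 (70%), against 50.9% of all genes. For the 40 genes the median was a log2 fold change of -0.32, with a range from -1.82 to 1.19, beside a median of -0.016 over all genes. Every Sirt6-KD library lay below every Sirt6-Ctrl library for 16 of the 40 genes (40%), against 15.6% of all genes, and above for 2 (Ids and Tpp1), against 14.8%. In these bulk libraries, a lower share of cells that express a gene and less of its RNA per cell cannot be told apart.

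**Figure D1:**
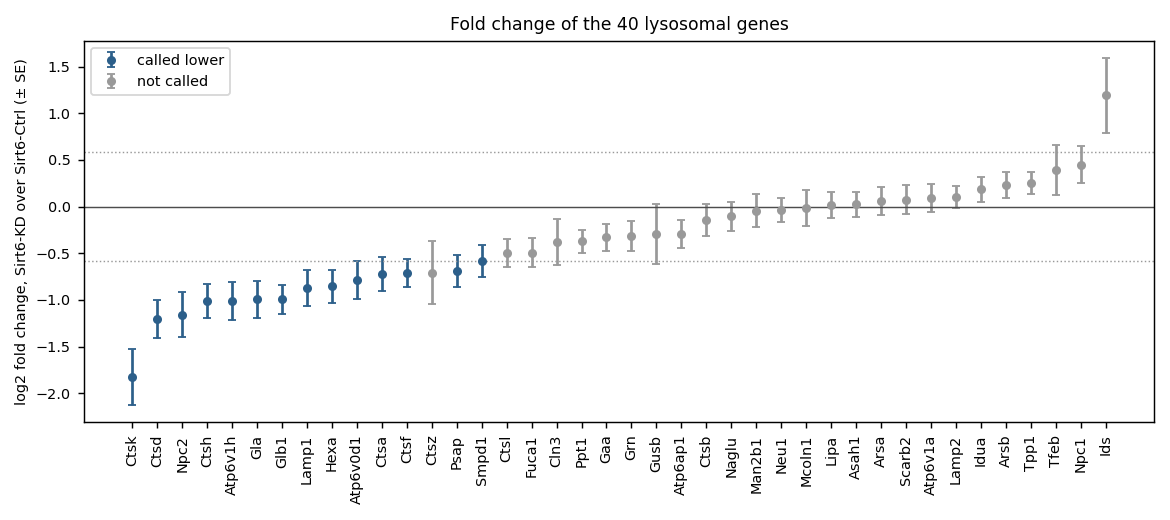
Change in Sirt6-KD relative to Sirt6-Ctrl (log2 fold change with its standard error) for each of the 40 genes, ordered by value, from a fit over 4 libraries per group with TMM scaling. Blue points are the 14 genes called lower, from Ctsk at -1.82 to Smpd1 at -0.59, the dotted lines mark a 1.5-fold change, and under spike-in scaling only Ctsk, Ctsd and Gla had a negative value.

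The scale on which libraries were compared set the sign of most of these changes. When libraries were scaled to their spike-ins instead, the median over all genes moved to a log2 fold change of 0.94. On that scale 0 of the 40 genes were called in either direction (0 lower and 12 higher at an unadjusted p below 0.05, edgeR). Of all 13250 genes, only 4 were called lower (0.0302%) and 20 higher, so few genes of any kind were called. Of the 14 genes, 11 had a positive log2 fold change. Relative to the median of all genes, all 14 were still below it on that scale, from -1.69 for Ctsk to -0.44 for Smpd1. The falls described here are thus relative to the other RNAs of the same library.

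A second dependence was on S1 and S2. Both lay above S3 and S4 for 12 of the 14 genes called lower (85.7%) and for 22 of all 40 (55%), against 25% of all genes tested. Summed over the 40 genes, the lysosomal RNAs were at 19810, 21560, 14030 and 15440 CPM in S1 to S4 and at 12540, 12180, 12670 and 12720 CPM in S5 to S8. These sums are on the TMM scale and are not shares of the counts of a library. The summed level was thus higher in each Sirt6-Ctrl library than in each Sirt6-KD library, with S3 closest to them. Without S1 and S2, 6 of the genes were called lower, against 5.00% of all genes: Ctsk, Ctsd, Ctsh, Glb1, Gla and Npc2. Ids was then called higher, and the median of the 40 genes was -0.11.

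**Figure D2:**
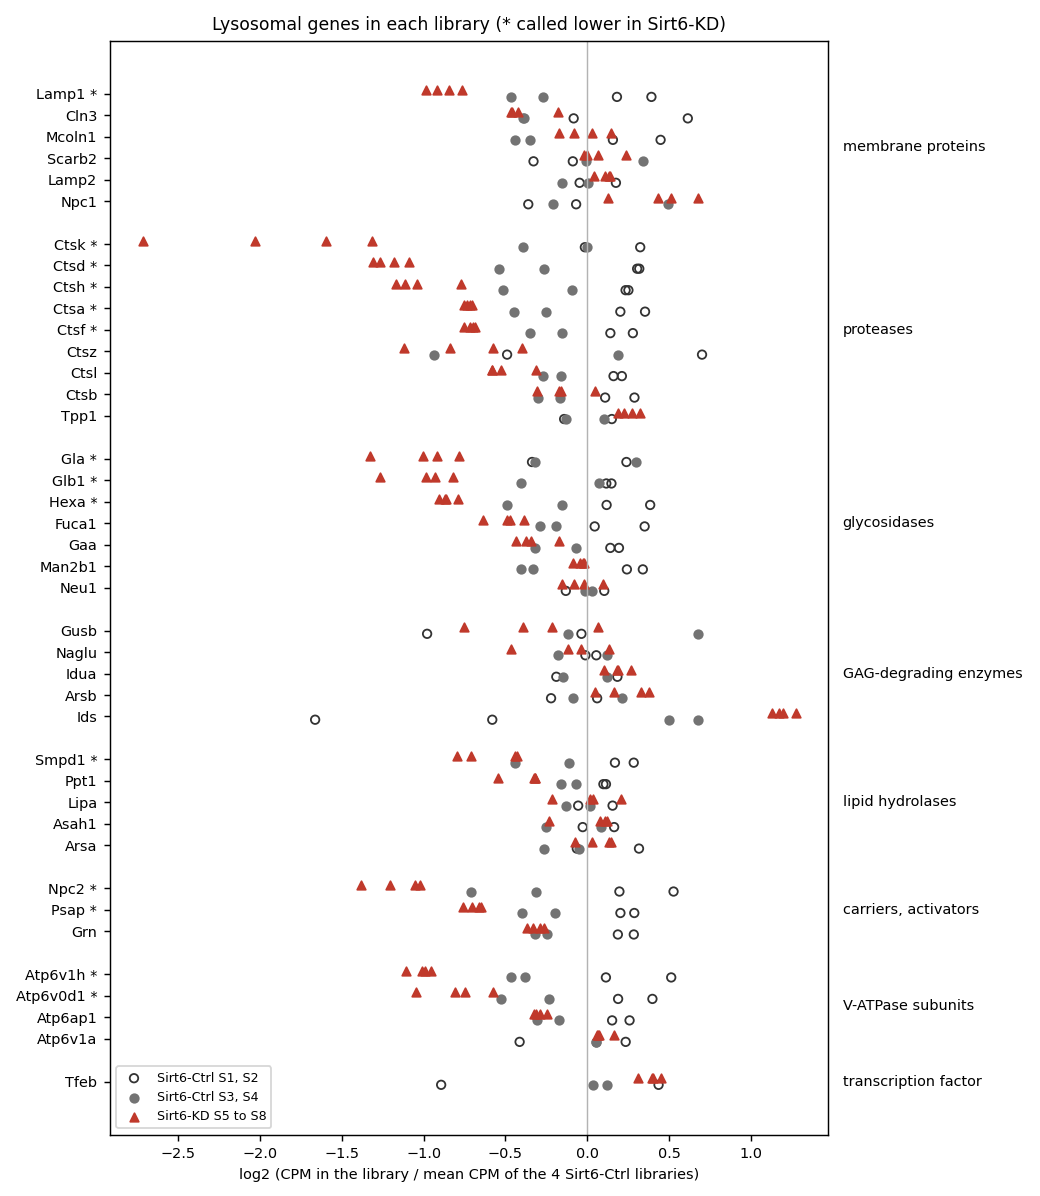
Level of each of the 40 genes in each library on a log2 scale, relative to the mean of the 4 Sirt6-Ctrl libraries, grouped by role, with asterisks on the 14 genes called lower. Open circles (S1, S2) lie to the right of filled circles (S3, S4) for 12 of those 14 genes, and red triangles (S5 to S8) lie left of all circles for 13 of them on this TMM scale.

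Since many lysosomal genes share the CLEAR element, the promoters of the 40 genes were searched for its core. Promoter windows (250 bases before the start of the gene to 50 after it) came from RefSeq on the rat assembly GRCr8 and were found for 32 of the 40 genes, not including Arsa, Arsb, Asah1, Atp6v1h, Ctsb, Hexa, Ppt1 and Psap. The motifs were the E-box CACGTG and its extended form TCACGTGA, both of which read the same on either strand, and each extended match also counts as a match of the shorter form. The shorter form stood in 9 of the 32 windows (28.1%), against 6.65% of all 27457 windows and 9.32% of the 9371 windows of genes tested. TCACGTGA stood in 5 of them (15.6%), against 0.867% of all windows and 1.73% of those of genes tested. Among the genes called lower, CACGTG stood in 5 of 11 windows (45.5%), and among the genes not called in 4 of 21 (19.0%). Such matches are a description of the letters and do not show that a factor was bound.

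The windows of Lamp1, Ctsd, Atp6v0d1, Glb1 and Ctsf are the 5 of genes called lower that hold the motif. Those of Cln3 and Mcoln1 are shown beside them as genes that hold it and were not called. Gaa and Idua, not shown, were not called either and hold the shorter form, beginning 67 and 3 bases before the start. Their log2 fold changes were -0.33 and 0.19. Each sequence runs 5′ to 3′ on the strand of the gene, and capitals mark CACGTG or TCACGTGA. The Lamp1 stretch is chr16:83075064-83075263 (minus strand) and holds the motif 5 times, 2 of them in the extended form. The others are 30 bases each, namely Ctsd chr1:206968822-206968851 (minus strand), Atp6v0d1 chr19:50357283-50357312 (minus strand), Glb1 chr8:122963606-122963635 (plus strand), Ctsf chr1:211582008-211582037 (plus strand), Cln3 chr1:190597950-190597979 (minus strand) and Mcoln1 chr12:6358224-6358253 (plus strand).
Lamp1: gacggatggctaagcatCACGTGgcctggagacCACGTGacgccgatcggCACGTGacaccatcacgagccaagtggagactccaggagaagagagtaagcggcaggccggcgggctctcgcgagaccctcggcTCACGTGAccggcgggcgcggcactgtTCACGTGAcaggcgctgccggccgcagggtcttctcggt
Ctsd: tccgcccctcgcccgcgtcTCACGTGAccc
Atp6v0d1: ccccattgtggTCACGTGAgatgcagtgcg
Glb1: cggctccggagtCACGTGgcctgcagaggc
Ctsf: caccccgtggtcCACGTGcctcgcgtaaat
Cln3: cacgggtactgTCACGTGAtccccaacctg
Mcoln1: cgtcaagcttgtCACGTGttcgacccaggc
The CACGTG core began 10 bases before the start in Ctsd, 52 in Atp6v0d1, 100 in Glb1, 149 in Ctsf, 38 in Cln3 and 22 in Mcoln1, and 38, 65, 150, 167 and 183 bases before it in Lamp1. Further matches lay 157 bases before the start in Ctsd and 66 before it in Cln3, both of the shorter form, and at base 5 of the gene in Mcoln1, in the extended form. The motif was thus present both in genes that fell, such as Ctsd, and in genes whose change did not pass the test, such as Mcoln1 and Cln3.

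The proteases, the longest list, held the largest number of calls, with 5 of 9 genes lower (Ctsa, Ctsd, Ctsf, Ctsh and Ctsk). This was 55.6%, against 10.7% of all genes, and the median log2 fold change was -0.71. Ctsk, the cathepsin best known for cleaving collagen in bone resorption, was at 30.1, 38.0, 23.2 and 30.4 CPM in S1 to S4 and at 4.63, 7.43, 10.1 and 12.2 CPM in S5 to S8. The groups did not overlap, and the lowest Sirt6-Ctrl library (S3) was still well above the highest Sirt6-KD library (S8). This was a fall of 3.54-fold (log2 fold change -1.82, SE 0.299, adjusted p = 0.00459, edgeR). Ctsk was the single gene of the 14 that also passed glmTreat, a test against a change of 1.5-fold. By that test 185 of all genes were called lower (1.4%). Ctsd, the main lysosomal aspartic protease, was at 1894, 1877, 1044 and 1265 CPM in Sirt6-Ctrl and at 631.6, 613, 670.8 and 714 CPM in Sirt6-KD. It fell 2.31-fold (log2 fold change -1.21, SE 0.202, adjusted p = 0.00498, edgeR), and S3 and S4 stood between S1 and S2 and the Sirt6-KD libraries. Ctsh, an aminopeptidase of the papain family, was at 270.1, 266.9, 158.6 and 212 CPM against 105, 101.1, 110.2 and 133 CPM. Its groups did not overlap and it fell by 1.02 on the log2 scale (SE 0.182, adjusted p = 0.00622, edgeR).

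Ctsf, another papain-family cathepsin, was at 194, 213.5, 138 and 158 CPM in Sirt6-Ctrl and within 104.5 to 109 CPM in Sirt6-KD, with a log2 fold change of -0.71 (SE 0.147, adjusted p = 0.0102, edgeR). The Sirt6-KD libraries of Ctsf were nearly equal to each other, and all lay below S3, the lowest control. Ctsa, or protective protein, a carboxypeptidase that stabilizes β-galactosidase and neuraminidase in a complex, was at 1279, 1420, 815 and 934 CPM against 659.7 to 682.6 CPM, and fell by 0.73 on the log2 scale (SE 0.182, adjusted p = 0.0197, edgeR). Ctsa was no longer called when S1, S2, S5, S6, S7 or S8 was left out (log2 fold change -0.74 to -0.57, adjusted p 0.0326 to 0.0671). Without S1 and S2 together, Ctsk, Ctsd and Ctsh were still called, at log2 fold changes of -1.63, -0.80 and -0.71, while Ctsf (-0.46) and Ctsa (-0.37) were not.

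The remaining proteases did not pass. Ctsb, an abundant papain-family cathepsin, was at 2762, 3127, 2279 and 2077 CPM in Sirt6-Ctrl and at 2270, 2287, 2649 and 2069 CPM in Sirt6-KD (log2 fold change -0.14, SE 0.167, adjusted p = 0.576, edgeR). Its groups overlapped throughout. Ctsl, another broad endopeptidase, was at 1390, 1440, 1032 and 1114 CPM against 832, 831, 861.5 and 1001 CPM, and although its groups did not overlap (adjusted p = 0.0416, edgeR) its log2 fold change of -0.50 (SE 0.153) was under the 1.5-fold minimum. Ctsz, a carboxypeptidase, stood at a log2 fold change of -0.71 with a wide spread in Sirt6-Ctrl (21.4 ± 10.5 CPM, against 13.1 ± 2.79 CPM after knockdown, SD, n = 4 per group), and was called lower when S3 was left out (log2 fold change -0.92, adjusted p = 0.0411, edgeR). Tpp1, the tripeptidyl peptidase lost in a childhood neuronal ceroid lipofuscinosis, was the one protease with a positive value. Its level was 171 ± 18.0 CPM in the controls and 203 ± 8.09 CPM after knockdown, with groups that did not overlap and a log2 fold change of 0.25 (SE 0.119, adjusted p = 0.150, edgeR).

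Among glycosidases of glycogen, glycoproteins and glycolipids, 3 of 7 were called lower (Glb1, Gla and Hexa), against 10.7% of all genes. All 7 had negative log2 fold changes, against 50.9% of all genes. Glb1, the β-galactosidase measured in the senescence stain, was at 195.5, 199.8, 136.5 and 189.8 CPM in S1 to S4 and at 91.0, 75.1, 94.5 and 102 CPM in S5 to S8. It fell 1.99-fold (log2 fold change -0.99, SE 0.156, adjusted p = 0.00412, edgeR), the smallest adjusted p of the 40 genes. Gla, the α-galactosidase deficient in Fabry disease, was at 55.4, 37.2, 37.6 and 57.7 CPM against 18.7, 24.9, 23.4 and 27.3 CPM, and fell by 0.99 on the log2 scale (SE 0.202, adjusted p = 0.00957, edgeR). Gla was one of the 2 genes called lower for which S1 and S2 did not both stand above S3 and S4, since S2 was its lowest control. Hexa, the α subunit of β-hexosaminidase, was at 304.5, 366, 199.6 and 252 CPM against 149.7 to 162 CPM (log2 fold change -0.86, SE 0.176, adjusted p = 0.0101, edgeR). Without S1 and S2, Glb1 and Gla were still called (log2 fold changes -0.84 and -1.0), and Hexa was not (-0.53).

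Of the other glycosidases, Fuca1, which removes fucose, had groups that did not overlap (314 ± 64.2 CPM in the controls, 223 ± 15.8 CPM after knockdown) and an adjusted p of 0.0451 by edgeR, but its log2 fold change of -0.49 was under the fold minimum. Gaa, the acid α-glucosidase of glycogen breakdown, had a log2 fold change of -0.33 (SE 0.146, adjusted p = 0.131, edgeR). Values close to 0 were seen for Man2b1, a lysosomal α-mannosidase (-0.045, SE 0.175), and Neu1, the sialidase of the complex with Ctsa and Glb1 (-0.035, SE 0.126). For both genes a change within this error was not detectable.

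No glycosaminoglycan-degrading enzyme of the 5 measured was called in either direction by edgeR's quasi-likelihood test. Over all genes the shares were 10.7% lower and 8.02% higher, so 0 of 5 does not set these enzymes apart. At an unadjusted p below 0.05, 0 were lower and 1 higher by that test, and DESeq2 and limma-voom each called 1 higher. That gene was Ids, the iduronate sulfatase that begins the breakdown of dermatan and heparan sulfate. It was at 29.3, 13.9, 70.2 and 62.0 CPM in S1 to S4 and at 98.8, 95.9, 105.9 and 100.3 CPM in S5 to S8. All Sirt6-KD libraries lay above all controls, but the controls were split, with S1 and S2 far below S3 and S4, the opposite order to that of most genes called lower. Its log2 fold change was 1.19 (SE 0.40, adjusted p = 0.0562, edgeR). Ids was called higher without S2 (0.91, adjusted p = 0.0344), S3 (1.51, adjusted p = 0.0189) or S4 (1.41, adjusted p = 0.0456), and also without S1 and S2 together (0.61, adjusted p = 0.0143, edgeR).

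The other enzymes of glycosaminoglycan breakdown had overlapping groups. Arsb, which removes sulfate from chondroitin and dermatan sulfate, was at 64.7 ± 8.35 and 76.1 ± 7.89 CPM (SD, n = 4 per group). Idua, the iduronidase that follows Ids, was at 60.1 ± 7.81 and 68.4 ± 3.23 CPM. Naglu, an N-acetylglucosaminidase of heparan sulfate, was at 63.3 ± 5.51 and 58.8 ± 9.83 CPM. Their log2 fold changes were 0.23, 0.19 and -0.11, none past the test. Gusb, the β-glucuronidase, varied widely in Sirt6-Ctrl (11.3 to 35.5 CPM) and had a log2 fold change of -0.30 (SE 0.319), so a moderate change of this gene was not detectable here.

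**Figure D3:**
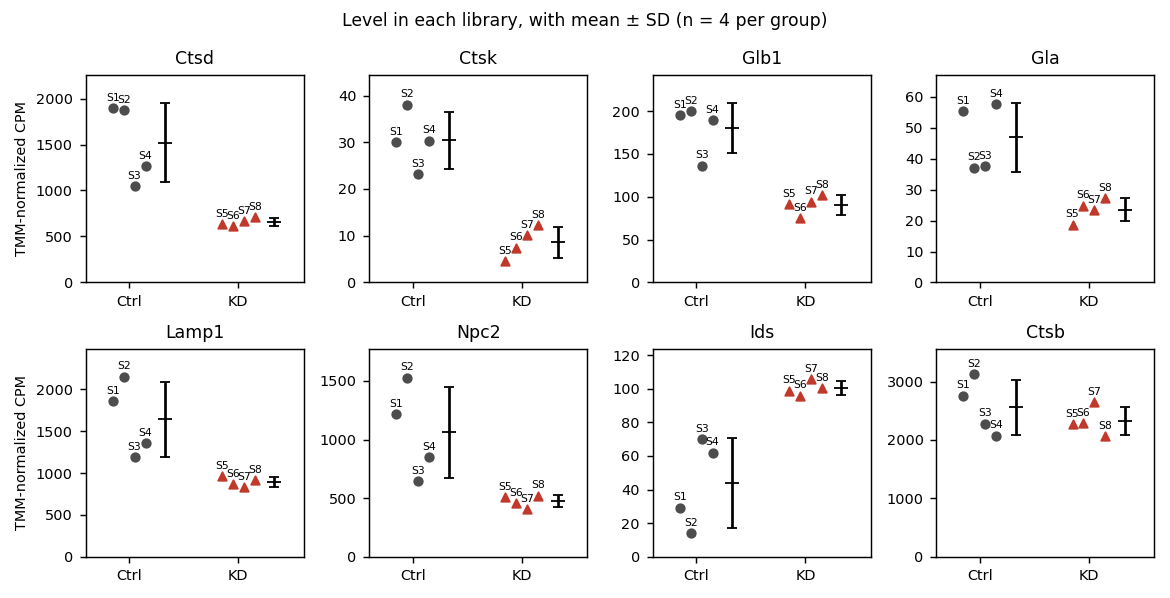
TMM-normalized CPM of 8 of the genes in each library (S1 to S4, Sirt6-Ctrl; S5 to S8, Sirt6-KD), with the mean and SD of each group (n = 4) beside the points; each axis starts at 0. The groups do not overlap for Ctsd, Ctsk, Glb1, Gla, Lamp1, Npc2 and Ids, with S1 and S2 lowest of all for Ids, while those of Ctsb overlap.

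Of 5 lipid hydrolases, sulfatases and thioesterases, Smpd1 alone was called (20%, against 10.7% of all genes called lower). Smpd1, the acid sphingomyelinase, was at 356, 386, 233.0 and 293 CPM in Sirt6-Ctrl and at 233.4, 182.5, 193 and 235.6 CPM in Sirt6-KD. Its groups overlapped, as S3 lay below S5 and S8, and its fall was just past the fold minimum (1.501-fold, log2 fold change -0.59, SE 0.175, adjusted p = 0.0370, edgeR). The call was lost when S1, S2, S5, S6, S7 or S8 was left out (log2 fold change -0.64 to -0.46, adjusted p 0.0633 to 0.119) and with DESeq2 (-0.57) and limma-voom (-0.57), whose fold changes were under the minimum. Ppt1, a palmitoyl-protein thioesterase, had groups that did not overlap and a log2 fold change of -0.37 (SE 0.126, adjusted p = 0.0569, edgeR). Lipa, the acid lipase of cholesteryl esters, Asah1, the acid ceramidase, and Arsa, which desulfates sulfatide, had log2 fold changes of 0.017, 0.024 and 0.059 with overlapping groups.

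The lumenal carriers and activators included 2 called lower of 3, against 10.7% of all genes. Npc2, a soluble protein that hands cholesterol to NPC1, was at 1215, 1528, 647 and 852 CPM in S1 to S4 and at 511, 459, 406.7 and 522.5 CPM in S5 to S8. It fell by 1.16 on the log2 scale (SE 0.244, adjusted p = 0.0109, edgeR), and by 0.65 without S1 and S2 (adjusted p = 0.0271). Psap, the precursor of the saposins that present sphingolipids to their hydrolases, was at 2581, 2737, 1699 and 1957 CPM against 1379, 1324, 1430 and 1419 CPM (log2 fold change -0.69, SE 0.172, adjusted p = 0.0195, edgeR). Its groups did not overlap, but it was no longer called without S1, S2, S5, S6 or S7 (log2 fold change -0.71 to -0.57, adjusted p 0.0316 to 0.0700). Grn, the precursor of granulins, had a log2 fold change of -0.31 (SE 0.162, adjusted p = 0.190, edgeR).

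Of the 6 membrane proteins, Lamp1 was called lower (16.7%, against 10.7% of all genes) and the other 5 were not called. Lamp1, one of the most abundant glycoproteins of the lysosomal membrane, was at 1859, 2151, 1189 and 1360 CPM in Sirt6-Ctrl and at 966.5, 869, 828 and 911 CPM in Sirt6-KD. The groups did not overlap and it fell by 0.88 on the log2 scale (SE 0.193, adjusted p = 0.0127, edgeR), or by 0.50 without S1 and S2, when it was no longer called. Lamp2, its close relative and a receptor of chaperone-mediated autophagy, was at 376, 438.6, 390.4 and 349 CPM against 425, 419, 427 and 400.1 CPM. Its groups overlapped, with a log2 fold change of 0.11 (SE 0.120, adjusted p = 0.566, edgeR) that was -0.21 after correction for gene length. The ratio of Lamp1 to Lamp2 counts within a library, which no scaling of libraries can move, was 4.94, 4.90, 3.05 and 3.89 in S1 to S4 and 2.27, 2.07, 1.94 and 2.28 in S5 to S8. The groups did not overlap in this ratio, so in these libraries Lamp1 RNA was lower relative to Lamp2 RNA after knockdown. The pair sets a gene called lower over one not called, and the ratio was not tested.

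Npc1, the membrane transporter that receives cholesterol from NPC2, was at 107, 131, 193.5 and 119 CPM in Sirt6-Ctrl and at 185.6, 196, 219.9 and 150.5 CPM in Sirt6-KD. S3 lay among the Sirt6-KD libraries, and the log2 fold change of 0.45 (SE 0.196, adjusted p = 0.124, edgeR) did not pass. Without S3 it was 0.66 and was called higher (adjusted p = 0.0105, edgeR). Mcoln1, the calcium channel mucolipin 1, was at 122, 149, 85.8 and 80.8 CPM against 104, 121, 111.8 and 97.2 CPM, with a log2 fold change of -0.014 (SE 0.195, adjusted p = 0.969, edgeR) whose sign changed with most alternatives. Scarb2, the receptor that carries glucocerebrosidase to the lysosome, had a log2 fold change of 0.074 (SE 0.153). Cln3, the membrane protein lost in juvenile Batten disease, was at 22.6 ± 8.24 CPM in Sirt6-Ctrl, with S2 highest at 34.6 CPM, and 17.4 ± 1.75 CPM in Sirt6-KD (log2 fold change -0.38, SE 0.246, adjusted p = 0.298, edgeR).

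The V-ATPase pumps protons into the lysosome through a membrane sector (V0) driven by a cytosolic ATPase sector (V1). Of the 4 subunits among the 40 genes, 2 were called lower, against 10.7% of all genes. Atp6v1h, a regulatory subunit of V1, was at 154.5, 203.7, 103 and 110 CPM in S1 to S4 and at 66.4, 73.7, 71.9 and 70.8 CPM in S5 to S8, and fell by 1.02 on the log2 scale (SE 0.205, adjusted p = 0.00946, edgeR). Atp6v0d1, which joins V0 to the stalk of the pump, was at 280.1, 323.9, 170.5 and 209 CPM against 165.1, 140.3, 118.8 and 146.5 CPM (log2 fold change -0.78, SE 0.201, adjusted p = 0.0215, edgeR). The lowest control (S3) and the highest Sirt6-KD library (S5) of Atp6v0d1 were close, and it was no longer called without S1, S6, S7 or S8 (log2 fold change -0.78 to -0.68, adjusted p 0.0537 to 0.0732). Without S1 and S2, neither was called, at -0.58 for Atp6v1h and -0.40 for Atp6v0d1.

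Atp6v1a, the catalytic subunit of V1, was at 208 ± 37.3 CPM in the controls and 222 ± 7.50 CPM after knockdown, with a log2 fold change of 0.092 (SE 0.145, adjusted p = 0.691, edgeR). Atp6ap1, an accessory protein of pump assembly, had a log2 fold change of -0.29 (SE 0.148, adjusted p = 0.181, edgeR). Among the 12 further V-ATPase subunits measured, 5 were called lower (Atp6v0e1, Atp6v1d, Atp6v1e1, Atp6v0c and Atp6v0b) and 0 higher. Atp6v0c, the proteolipid of the V0 ring, was at 1081, 1239, 616.1 and 722 CPM in Sirt6-Ctrl and at 502, 446, 437 and 482 CPM in Sirt6-KD (log2 fold change -0.97, SE 0.215, adjusted p = 0.0129, edgeR). Atp6v1e1, a stalk subunit, had a log2 fold change of -1.10 (SE 0.228, adjusted p = 0.0103, edgeR). Over both lists, 7 of 16 V-ATPase subunits were called lower, against 10.7% of all genes, and the median log2 fold change was -0.49. All Sirt6-KD libraries lay below all controls for 9 of the 16, against 15.6% of all genes. In Atp6v0c, S1 and S2 stood far above S3 and S4. Of the 80 further lysosomal genes described below, these 12 subunits among them, 8 were called lower without S1 and S2, against 5% of all genes.

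Tfeb, the transcription factor of the CLEAR element, was not called. It was at 17.5, 6.96, 13.2 and 14.0 CPM in S1 to S4 and at 16.0, 17.0, 17.0 and 17.6 CPM in S5 to S8. S2 stood far below the other libraries and S1 lay among the Sirt6-KD libraries (log2 fold change 0.39, SE 0.267, adjusted p = 0.324, edgeR). Its relatives Tfe3 and Mitf were not called either, at log2 fold changes of 0.096 (adjusted p = 0.666, edgeR) and 0.091 (adjusted p = 0.761, edgeR). The level of Tfeb RNA does not report how much of the protein is in the nucleus, where it acts.

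Because a scaling factor cancels within a library, ratios of counts were also taken for 5 further pairs of genes with related roles, chosen after their values were seen and given with no test. In each pair a gene called lower was set over a gene not called, so lower ratios largely follow from the choice. The ratios are thus not a test of the calls. Ctsd over Ctsb was 0.458 to 0.686 in Sirt6-Ctrl and 0.253 to 0.345 in Sirt6-KD. Ctsk over Ctsl was 0.0216 to 0.0272 in Sirt6-Ctrl and 0.00556 to 0.0122 in Sirt6-KD. Glb1 over Neu1, which act in a shared complex, was 2.62 to 4.21 against 1.64 to 2.12. None of these ratios overlapped between the groups, and neither did Atp6v1h over Atp6v1a, at 0.479 to 1.30 against 0.305 to 0.336. Npc2 over Npc1, by contrast, overlapped, because S3 at 3.34 lay below S8 at 3.47.

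**Figure D4:**
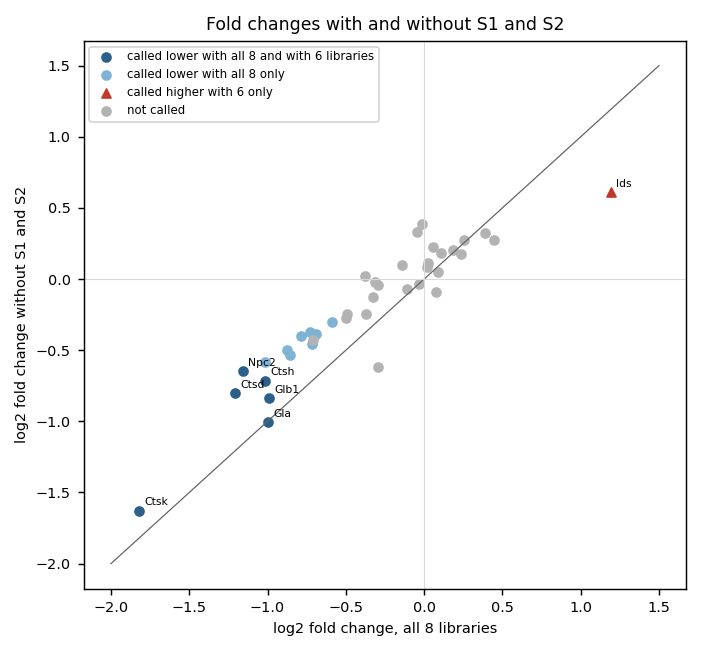
Log2 fold change of each of the 40 genes with all 8 libraries (x axis) and with S1 and S2 left out (y axis), both on the TMM scale; the diagonal marks equal values. Most genes with negative values lie above the diagonal, nearer to 0 without S1 and S2; the 6 dark blue genes were called lower both ways, and Ids (triangle) was called higher without S1 and S2.

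Beyond the 40 genes, 80 of 91 further lysosomal genes had a named row and were tested, and 21 were called lower and 2 higher, with a median log2 fold change of -0.21. The number called lower changed with single libraries, and so did the share of all genes called lower, which was 10.7% with all 8. It was 8 without S1 (5.71% of all genes), 12 without S2 (8.42%), 24 without S3 (14.1%), 19 without S4 (10.9%), 11 without S5 (5.81%), 8 without S6 (5.15%), 10 without S7 (5.60%) and 13 without S8 (7.24%). Of 22 other hydrolases and lumenal proteins, 6 were lower (27.3%, against 10.7% of all genes). The one with the smallest p was Sumf1, the enzyme that activates all sulfatases, listed here though not itself a lysosomal hydrolase. Sumf1 fell from 183 ± 28.3 CPM in the controls to 99.4 ± 15.8 CPM (SD over 4 libraries, log2 fold change -0.88, adjusted p = 0.00634, edgeR). Pla2g15, a lysosomal phospholipase, Plbd2, a phospholipase B-like protein, Aga, which cleaves the asparagine link of glycoproteins, and Dnase2, the acid DNase, had log2 fold changes of -0.71, -0.75, -0.66 and -0.60. The groups of Dnase2 overlapped (adjusted p = 0.0464, edgeR). It was not called with no filter on low counts (adjusted p = 0.0724) or with spike-in rows left out (adjusted p = 0.0536, edgeR). Of 19 other membrane proteins, 4 were lower (21.1%, against 10.7% of all genes). These were Laptm4a (-0.73), Laptm4b (-0.78), Tmem192 (-0.65) and Lmbrd1 (-0.70), the last of these a cobalamin exporter.

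Calls among sorting and nutrient sensing genes went in both directions. Nagpa, which uncovers the mannose 6-phosphate tag of lysosomal enzymes, fell from 60.2 ± 14.6 to 31.4 ± 5.09 CPM (log2 fold change -0.94, adjusted p = 0.0116, edgeR). Igf2r, the large mannose 6-phosphate receptor that carries those enzymes, rose from 608 ± 109 to 964 ± 92.9 CPM (log2 fold change 0.66, adjusted p = 0.0164, edgeR), and was no longer called without S6 (adjusted p = 0.0555) or S7 (adjusted p = 0.0589), without S1 and S2 (log2 fold change 0.56) or after correction for gene length (0.20). Nagpa and Igf2r were the only calls of 11 sorting genes, 1 lower (9.09%) and 1 higher, with a median log2 fold change of -0.018. The shares over all genes were 10.7% and 8.02%, so sorting genes were called lower about as often as all genes. Of 16 genes of the TFEB family and of nutrient sensing at the lysosome, 5 were lower (31.2%) and 1 higher. Their median log2 fold change was -0.0065. Fnip2, a partner of folliculin, rose from 61.8 ± 30.4 to 200.4 ± 22.5 CPM (log2 fold change 1.70, adjusted p = 0.00596, edgeR). Rheb, the GTPase that activates mTORC1, fell by 0.68, Zkscan3, known as a repressor of autophagy and lysosome genes, by 0.70, Lamtor3, a Ragulator subunit, by 0.67 and Rraga, a Rag GTPase, by 0.58 on the log2 scale. The groups of Rraga overlapped (adjusted p = 0.0380, edgeR), and its fold change was under the minimum with DESeq2 (-0.57) and limma-voom (-0.57). Without S1, Rraga was not called either (-0.45, adjusted p = 0.134, edgeR).

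**Figure D5:**
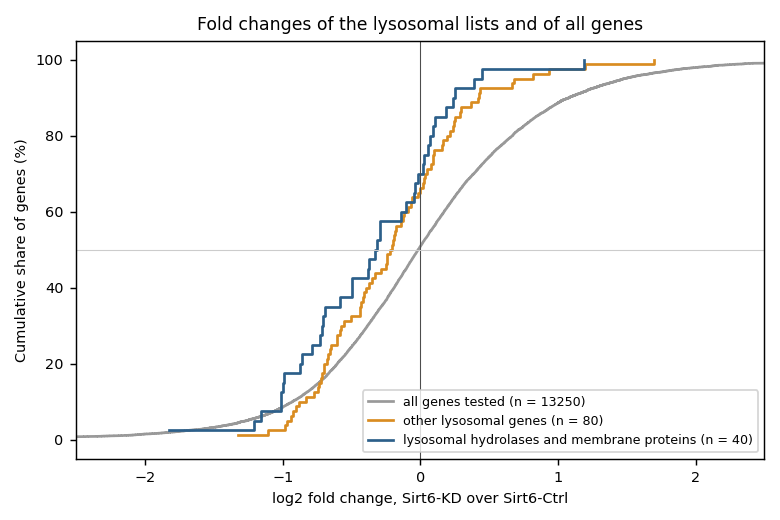
Cumulative share of genes (%) against log2 fold change (Sirt6-KD relative to Sirt6-Ctrl, TMM scale), for the 40 lysosomal hydrolases and membrane proteins (blue), 80 other lysosomal genes (orange) and all 13250 genes tested (grey). At 50% the curves cross at -0.32, -0.21 and -0.016, and with spike-in scaling the medians of the 40 genes and of all genes were 0.75 and 0.94.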

How the data were processed

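RNA-seq of 4 Sirt6-Ctrl and 4 Sirt6-KD cultures of primary rat NP cells was used, with groups taken from the sample labels. Raw read counts of Ensembl genes and ERCC spike-ins, not normalized, were deposited by the authors. From a second deposited table, only the column pairing gene IDs with symbols was used. That table holds a normalized signal, for which the authors scaled the raw counts of a library by 1 size factor. It also holds the authors' own log2 fold changes, p-values and adjusted p-values. Neither was used. The submitters' processing notes name Trimmomatic 0.36, STAR 2.5.2b, featureCounts, Subread 1.5.2, DESeq2 and the build Rnor_6.0, without their settings. Whether reads were counted by strand is not given in the sources used here, so reads of overlapping genes cannot be assigned with certainty.

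Genes were matched by symbol, and 72 gene rows tested had none. Rows with low counts were removed in R 4.3.3 by filterByExpr (edgeR 4.0.16). This left 13313 rows, 63 of them spike-ins. Libraries were normalized by TMM. Groups were compared by edgeR's quasi-likelihood test, two-sided. P-values were adjusted over all rows by the Benjamini-Hochberg method. A call required an adjusted p under 0.05 together with a change of over 1.5-fold. Levels are CPM with the SD over 4 libraries, and 3 counts correspond to 0.0727 to 0.0927 CPM. No molecular identifiers are described, so this floor covers counting error only. DESeq2 1.42.0, limma-voom of limma 3.58.1, other filters, scalings and thresholds, each library left out, S1 and S2 left out, and a loess correction (span 0.5) for gene length (RefSeq gene span by symbol, for 85.9% of the genes) were the alternatives.

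The 40 genes, their roles and the further lists were chosen with earlier results of these data known. The genes given in full were all called members and Tfeb, Lamp1, Lamp2, Ctsd, Ctsb, Ctsk, Ctsl, Psap, Npc1 and Mcoln1, with Ids chosen after its values were seen. From each further list, up to 5 called genes with the smallest p were named, and Tfe3 and Mitf after their values were seen. Levels per coding length, a planned description, were not computed because no coding length was used here, so levels are not ranked between genes. All 6 pairs of libraries within each group differed by more than sampling noise. Of the marker lists, 1 of 7 NP genes with a named row, 2 of 8 annulus fibrosus and fibroblast genes and 0 of 2 macrophage and osteoclast genes were called lower and 0 of each higher (edgeR). The shares over all genes were 10.7% lower and 8.02% higher, and lists this short cannot be told from them. Endothelial markers had 1 of 6 genes with a named row, with 0 to 21 counts, and erythroid markers 0 of 5.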

Additional observations from a re-analysis of the deposited data

Results flagged for a closer look

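Of 40 groups of 4 libraries examined (20 of the genes in 2 groups), 1 held a library far from the others of its group (Dixon's test). Chance alone marks about 1 in 20 groups, or 2 here. For Glb1 in Sirt6-Ctrl, S3 was the lowest, with a gap to the next library of 0.842 of the group's range (136.5 CPM, against 189.8 to 199.8 CPM in the other controls). It still lay above all Sirt6-KD libraries of Glb1, the highest of which was at 102 CPM.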

How the results depend on the processing

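No paired analysis was possible because the labels and count columns carry no number shared between the groups, although the series record describes a control for each of 4 rats. The 14 calls became 13, with Smpd1 lost, under either other filter, RLE factors, no factors, spike-in rows left out, DESeq2 or limma-voom. The shares of all genes called lower were then 6.4% to 12.2%. The calls became 16 with no fold minimum (12.8% of all genes) and 11 with the length correction (Ctsa, Ctsf and Smpd1 lost, 12.5% of all genes). They became 6 without S1 and S2 (5%), 1 with glmTreat (1.4%) and 0 with spike-in scaling (0.0302%), which moved all genes. With glmTreat or spike-in scaling, few of all genes were called lower. Genes called higher numbered 1 with DESeq2, limma-voom, the length correction or without S1 and S2. The median of the 40 genes was 0.75 with spike-in scaling and -0.11 without S1 and S2. Leaving out 1 library gave 10 to 15 lower (against 5.15% to 14.1% of all genes), 0 to 2 higher and medians of -0.42 to -0.22. Ctsk, Ctsd, Ctsh, Ctsf, Glb1, Gla, Hexa, Npc2, Lamp1 and Atp6v1h were called in all 8 such fits.

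Of the further lysosomal genes, 13 were lower with no normalization factors (against 8.33% of all genes) and 8 without S1 and S2 (5%). With glmTreat (1.4%) or spike-in scaling (0.0302%), 0 were lower. In the other direction, 1 was higher with glmTreat, the length correction or without S1 and S2 and 0 with spike-in scaling. Leaving out 1 library gave 8 to 24 lower and 1 to 3 higher.

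With spike-in scaling, where the median of all genes was 0.94, log2 fold changes turned positive for Glb1 (0.043), Npc2 (0.037), Ctsh (0.082), Atp6v1h (0.15), Lamp1 (0.26), Hexa (0.26), Atp6v0d1 (0.35), Ctsf (0.37), Ctsa (0.40), Psap (0.41), Smpd1 (0.50), Ctsl (0.57), Ctsb (0.93) and Mcoln1 (1.13). So did those of Atp6v1e1 (0.074), Atp6v0e1 (0.12), Sumf1 (0.15), Nagpa (0.16), Atp6v0c (0.20), Atp6v1d (0.24), Laptm4a (0.27), Zkscan3 (0.31), Pla2g15 (0.31), Atp6v0b (0.32), Rraga (0.32), Rheb (0.36), Plbd2 (0.38), Aga (0.40), Laptm4b (0.40), Lamtor3 (0.40), Dnase2 (0.41), Tmem192 (0.44) and Lmbrd1 (0.46). Mcoln1, near 0 throughout, was also positive with no filter (0.029), RLE factors (0.0045), no factors (0.10), spike-in rows left out (0.021), DESeq2 (0.0037), limma-voom (0.031), without S1 and S2 (0.39), and at -0.14 to 0.19 with 1 library left out. Ctsb was 0.10 without S1 and S2, and Lamp2 was -0.21 with the length correction. Beyond the scaling itself, the cause of these shifts was not tested.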

Other observations

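S2 was the highest of the 8 libraries for 24 of the 40 lysosomal genes and the lowest for 7, among them Ids and Tfeb. Within Sirt6-KD the libraries lay closer together, as the correlation of log2 CPM between library pairs was 0.965 to 0.970 there and 0.879 to 0.940 within Sirt6-Ctrl.

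Fibroblast and annulus fibrosus markers gave a mixed picture beside the lysosomal genes. Dpt, a matrix protein of connective tissue, fell from 17.8 ± 2.68 CPM in the controls to 2.0 ± 1.34 CPM (SD over 4 libraries, log2 fold change -3.15, adjusted p = 0.00378, edgeR), and Scx, a transcription factor of tendon, fell from 63.6 ± 35.9 to 27.6 ± 10.8 CPM with groups that overlapped (adjusted p = 0.0490, edgeR). The other 6 of the 8 genes measured were not called, so 25% were called lower, against 10.7% of all genes. Of all 8, 6 had negative log2 fold changes and 2 positive ones, Col12a1 (0.83) and Pdgfra (0.82). The summed level of the list was 13760 to 26010 CPM in Sirt6-Ctrl and 9049 to 18270 CPM in Sirt6-KD. Most of this sum was Col1a1, at 13280 to 25200 and 7957 to 17460 CPM, which was not called (adjusted p = 0.150, edgeR). The part of these markers in the lysosomal results was not tested.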
